A study of Homo sapiens with 6 samples.

Results

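Peptidases of the cell surface and of the secretory route trim or inactivate peptides outside the cell, and in the kidney they are best known for the angiotensins and kinins. Dipeptidyl peptidases such as DPP4 take a pair of residues off the amino end of a chain, aminopeptidases take single residues, carboxypeptidases work from the other end, and neprilysin (MME) cuts inside short peptides. Podocytes are the epithelial cells that cover the glomerular capillaries. They are known to carry aminopeptidase A (ENPEP) and neprilysin, and the glomerulus is one of the sites where angiotensin II is made and removed.

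The 10 genes examined were DPP4, FAP, DPP7, ANPEP, MME, ENPEP, ACE, CPA4, CPE and CPM. They were chosen by name, with results of the authors' levamisole comparison in these cultures known, and the rows were then found by gene name. Of the 10 genes, 9 had a row among the 20745 genes of the deposited table, and FAP was not analysed here. Not all of the 9 products stay at the surface. DPP4, ANPEP, MME, ENPEP, ACE and CPM are membrane enzymes, whereas CPA4 is secreted, CPE works in secretory granules and DPP7 in intracellular vesicles.

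RNA came from the AB 8/13 line, conditionally immortalized human podocytes that were grown at 33 °C and differentiated at 37 °C for 7 to 10 days. There were 3 vehicle cultures and 3 cultures given 1 µM levamisole for 24 h. Levamisole, first a drug against worms, is given to children with nephrotic syndrome to prevent relapses. The sample labels place both groups in serum-free medium, but according to the study's methods the vehicle cultures were kept in medium with serum. The cultures of a group came from different passages of 1 immortalized line, so they carry the features of that line and not of several donors.

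The table gives 1 level per gene, the base mean, which is the authors' mean of normalized counts over the libraries of their fit. It holds no value per culture, so the levels have no error and the depth of each library is unknown. No new comparison of a gene's level between vehicle and levamisole can be made from the base mean. The other 5 value columns hold the authors' own comparison of levamisole with vehicle and were not used. The levels are therefore those of vehicle and levamisole cultures pooled, and small differences between genes cannot be set against a spread between cultures. In bulk RNA, fewer expressing cells and less RNA per cell cannot be told apart. The libraries were made with an adapted CEL-seq protocol, which tags the 3′ end of each transcript, so that counts depend little on transcript length. Genes were nevertheless compared on the base mean per kilobase of transcript, and the base mean itself is given beside it. With such counts, division by length lowers long transcripts against short ones. The base mean is then the scale closer to the protocol.

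The cultures were checked against marker genes. Of the podocyte markers, CD2AP, an adaptor of the slit diaphragm (base mean 929), FOXC2, a podocyte transcription factor (1013), and KIRREL1, a slit diaphragm protein (253), were well detected. SYNPO (22.8), PODXL (15.3) and WT1 (6.21) were low, PTPRO stood at 0.333, and NPHS1 and LMX1B were not analysed here. The list used holds 17 symbols, of which KIRREL is an older name of KIRREL1, and 14 had a row, 10 of them with a base mean of at least 5. The 5 markers of parietal epithelium, the neighbouring cells that line Bowman's capsule, ranged from 114 for PAX2 to 2965 for CLDN1. The label podocyte thus rests on CD2AP, FOXC2 and KIRREL1 more than on the classical differentiation markers. Leukocyte markers were between 0.832 and 2.40 (3 of 6 with a row), and of the 3 endothelial markers with a row, VWF and CDH5 were under 1 and EHD3 had 80.1. Among proximal tubule markers, AQP1 had a base mean of 243 and the other 3 with a row lay between 0.563 and 1.22. Among the mesangial and fibroblast markers, COL1A1 reached 2732 and DCN 36.9, and COL3A1 (1.79) and PDGFRB (4.14) were under 5. The part of such cells or of dedifferentiation in the levels of the peptidases was not tested.

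The 9 peptidase genes spanned more than 3 orders of magnitude. CPA4 was the most abundant with a base mean of 1699, above 98.1% of all genes, and ACE was the least abundant with 1.29, at the 21.1 percentile, or at the 6.16 percentile when levels were taken per kilobase. The median gene of the table had a base mean of 21.8 and the upper quartile was 130.5. The 6 genes CPA4, CPE, DPP4, CPM, MME and ENPEP lay above the median, and DPP7, ANPEP and ACE lay below it. A base mean of at least 5 was found for 8 of the 9 genes, with ACE as the exception, compared with 64.3% of all genes. The 9 genes together made up 0.0404% of the summed base means, and CPA4 alone contributed 66.3% of the members' sum.

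**Figure D1:**
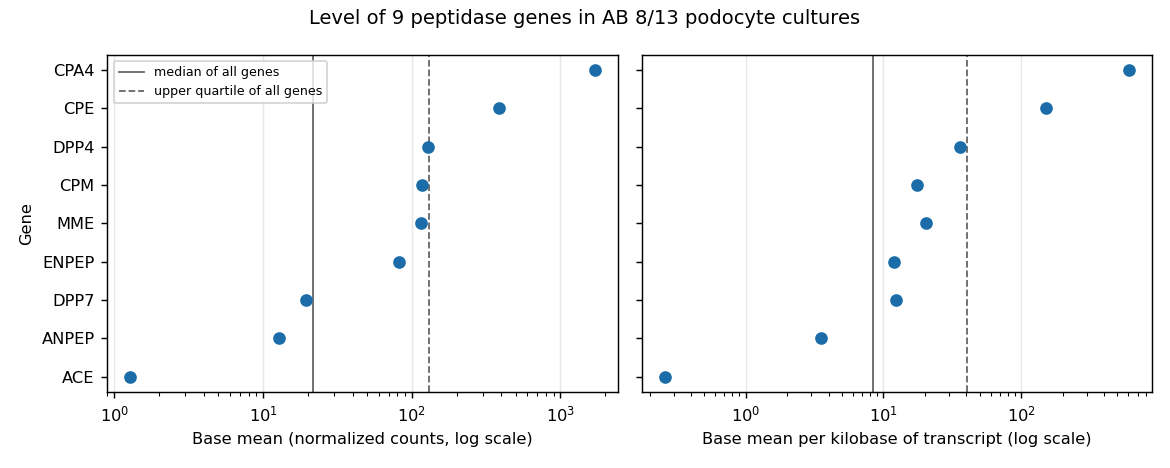
Level of each of the 9 genes as the base mean (left, normalized counts) and as the base mean per kilobase of transcript (right), both on log axes, with the median (solid line) and upper quartile (dashed line) of all genes; there is 1 pooled value per gene and no error. CPA4 and CPE lie above the upper quartile on both scales, and ANPEP and ACE lie below the median on both.

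CPA4 (ENSG00000128510) encodes a secreted zinc carboxypeptidase of the pancreatic carboxypeptidase A type, which removes hydrophobic residues from the carboxyl end. It lies on chromosome 7 of GRCh38 from 130293134 to 130324180 on the plus strand, and its canonical transcript has 11 exons. Per kilobase of transcript its base mean was 609, which was 4.05 times the next value, that of CPE, and 17.0 times that of DPP4. It ranked 387 among the 20745 genes by base mean. Its relatives of the same type with a row, CPA5 and CPA6, had base means of 1.52 and 0.517, so CPA4 was the 1 carboxypeptidase A gene with a level over 5 among the 3 analysed. Latexin (LXN), an intracellular inhibitor of such carboxypeptidases, had a base mean of 26.0, and RARRES1, which is related to latexin, had 2.32.

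CPE (ENSG00000109472, chromosome 4, 165361194 to 165498547, plus strand) encodes the carboxypeptidase that trims basic residues from prohormones in secretory granules. Its base mean was 388, or 150.3 per kilobase, at the 89.7 percentile. The genes that work with CPE on prohormones were uneven. The amidating enzyme PAM reached 945, the chaperone SCG5 168 and the convertase FURIN 76.0. The granule convertases PCSK1 and PCSK2, which cut prohormones before CPE trims them, stood at 0.762 and 0.717, and PCSK6 at 0.538. Of the 11 genes of this list with a row, 5 had a base mean of at least 5. The granule protein CHGA had 9.41.

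CPM (ENSG00000135678, chromosome 12, 68842197 to 68971570, minus strand) encodes a carboxypeptidase held at the membrane by a lipid anchor, which takes the last arginine or lysine off kinins and other peptides. Its base mean was 117, or 17.6 per kilobase. CPD, a membrane carboxypeptidase of the secretory route with the same preference, had a higher level, with a base mean of 506 and 54.0 per kilobase. The kinin receptors BDKRB1 and BDKRB2 had base means of 0.509 and 2.29, at the 8.51 and 27.8 percentiles. Of the 17 carboxypeptidases of this class that were looked up, 7 had a row, 4 with a base mean of at least 5 (CPA4, CPD, CPE and CPM) and 3 under it. The 3 under it were CPA5, CPA6 and CPXM1.

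DPP4 (ENSG00000197635) lies on chromosome 2 from 161992245 to 162074394 on the minus strand, with 26 exons in its canonical transcript. It encodes the membrane serine peptidase that inactivates incretins and several chemokines. Its base mean was 128, or 35.8 per kilobase, which placed it just below the upper quartile of all genes on both scales. DPP7 (ENSG00000176978, chromosome 9, 137110542 to 137118309, minus strand), a vesicular peptidase of similar preference but of another peptidase family, had a base mean of 19.6, or 12.2 per kilobase. On the base mean, DPP4 was 6.53 times DPP7. Per kilobase DPP4 was 2.92 times DPP7, because division by length favours the shorter DPP7 transcript (1601 against 3573 bases).

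The cytosolic relatives of DPP4 were more abundant than DPP4 itself. DPP9 had a base mean of 498 (117 per kilobase) and DPP8 one of 373 (51.3 per kilobase). The related PREPL (302) and the lysosomal PRCP (176) also exceeded DPP4 on both scales, whereas PREP exceeded it on the base mean (204) but not per kilobase (28.1). DPP6, a relative without peptidase activity that binds potassium channels in neurons, was at 1.87. In a list of 10 such genes, 8 had a row, and 7 of these had a base mean of at least 5. DPP4 took place 6 of 8 on the base mean.

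Partners and substrates of DPP4 were mostly low. Caveolin 1 (CAV1), a binding partner at the membrane, was among the most abundant transcripts with a base mean of 13006. Adenosine deaminase (ADA), which docks on DPP4 in human cells, had 26.0. The chemokine substrates CXCL11 and CXCL12 had 12.3 and 12.0, CXCL10 4.84 and CCL5 1.41. The incretin GIP had 0.986 and its receptor GIPR 3.00, and the glucagon-like peptide receptor GLP2R had 1.44. In the list of 12 partners and substrates, 10 had a row, and 4 of the 10 had a base mean of at least 5. Apart from CAV1 and ADA, every gene with a row in this list was below the median gene on the base mean. Per kilobase, NPY (8.86) was also just above the median gene (8.45).

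**Figure D2:**
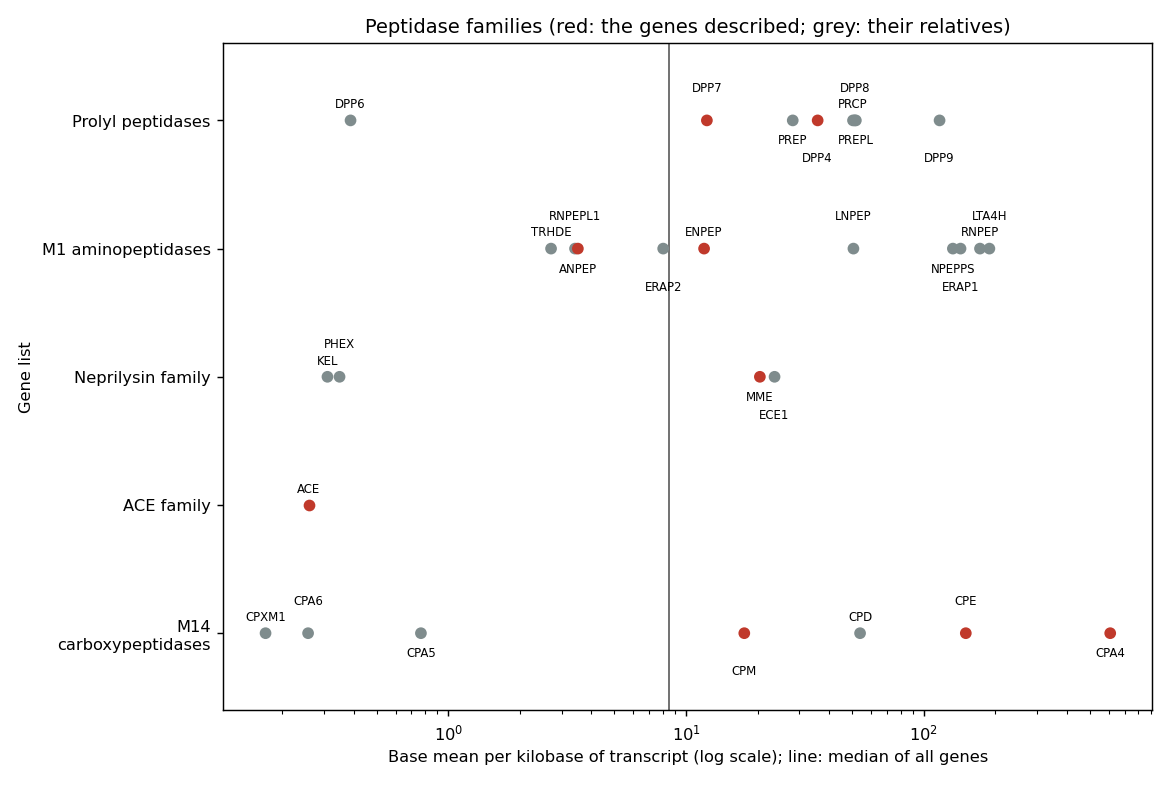
Base mean per kilobase of transcript (log axis) of the genes with a row in 5 peptidase families, 1 pooled value per gene with no error, with the 9 genes described in red, their relatives in grey and the median of all genes as a line. CPA4 lies to the right of its whole class, while DPP4, ENPEP and ANPEP lie below several intracellular relatives.

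Enzymes of the angiotensin route were next compared, together with other genes of that route. ACE (ENSG00000159640, chromosome 17, 63477061 to 63498380, plus strand), which makes angiotensin II, was hardly detected with a base mean of 1.29, or 0.259 per kilobase. The substrate angiotensinogen (AGT) had 116, and ATP6AP2, an accessory protein of the proton pump, had 2857. The angiotensin receptor AGTR1 stood at 1.47 and the receptor MAS1 at 0.369.

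ENPEP, MME and ANPEP, surface enzymes that degrade angiotensins, had higher levels than ACE, which was hardly detected. Of these, ANPEP lay below the median gene on both scales. ENPEP (ENSG00000138792, chromosome 4, 110365733 to 110565285, plus strand), which turns angiotensin II into angiotensin III, had a base mean of 81.8, or 11.9 per kilobase. MME (ENSG00000196549, chromosome 3, 155024124 to 155183704, plus strand) had 116, or 20.5 per kilobase. ANPEP (ENSG00000166825, chromosome 15, 89784895 to 89815401, minus strand), the aminopeptidase N that acts on angiotensin III, had 12.8, or 3.51 per kilobase. On the base mean, MME was 90.0 times, ENPEP 63.6 times and ANPEP 10.0 times ACE. Per kilobase, MME was 79.0 times, ENPEP 46.0 times and ANPEP 13.5 times ACE, whose level is too low for these ratios to be precise. The cytosolic or mitochondrial endopeptidase NLN had 1205, the angiotensin IV receptor LNPEP 614 and the lysosomal carboxypeptidase CTSA 318. Over the 16 genes of this list, 14 had a row and 11 had a base mean of at least 5. ENPEP, MME and ANPEP thus had higher levels than ACE and AGTR1 on both scales.

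The surface aminopeptidases ENPEP and ANPEP were then set beside the rest of their class. ERAP1 (691) and LNPEP (614), which trim peptides in the endoplasmic reticulum and endosomes, and the cytosolic NPEPPS (572), RNPEP (414) and LTA4H (404) all exceeded ENPEP. ENPEP in turn exceeded ERAP2 (41.1), TRHDE (29.9) and RNPEPL1 (19.7). On the base mean, ENPEP took place 6 and ANPEP place 10 of the 10 M1 aminopeptidases with a row. All 10 had a base mean of at least 5. Per kilobase, ANPEP was close to RNPEPL1 (3.51 and 3.41) and above TRHDE (2.71). Among neprilysin relatives, the endothelin converting enzyme ECE1 (119) and MME (116) were close on the base mean, and PHEX (2.19) and KEL (0.774) were far lower.

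Neighbouring genes in the order of levels were often close. On the base mean, CPM and MME differed by a factor of 1.01 and DPP4 and CPM by 1.10. Per kilobase, MME was above CPM (20.5 and 17.6) and DPP7 above ENPEP (12.2 and 11.9), so both pairs changed places between the scales, although ENPEP was 4.17 times DPP7 on the base mean. Without values per culture, no order can be given within close pairs, such as CPM and MME or DPP4 and CPM on the base mean. The places given within families are likewise those of the pooled values, with no spread to set them against. The gaps between CPA4 and CPE, between CPE and DPP4, and between ANPEP and ACE were at least 3.03-fold on the base mean and at least 4.05-fold per kilobase.

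The promoter windows of the members were examined, because the level of a gene is the quantity measured here and the members differ widely in it. Each window covers 250 bases before and 50 bases after the start site that RefSeq gives (GRCh38.p14), and a window was found for all 9 genes. In 7 of the 9 the start site lay within 100 bases of the start of the canonical transcript. The start site used for MME lies 647 bases upstream of it and that for ACE 7785 bases downstream of it, so the ACE window does not describe the longer transcript of ACE. The windows of CPA4 (chr7:130292911-130293210, plus strand), DPP4 (chr2:162074166-162074465, minus strand) and CPM (chr12:68933150-68933449, minus strand) are printed 5′ to 3′ as 3 examples, the gene with the highest level, the dipeptidyl peptidase and the window with the most GC boxes. Capitals mark TATAAA (the TATA box), TGANTCA and GGGCGG (a GC box), each on either strand. The N in TGANTCA is any base, so the pattern is wider than TGACTCA and TGAGTCA, the consensus sites of AP-1. AP-1 is a dimer of FOS and JUN proteins. Shares of all promoters with TGANTCA are for the wider pattern.
CPA4: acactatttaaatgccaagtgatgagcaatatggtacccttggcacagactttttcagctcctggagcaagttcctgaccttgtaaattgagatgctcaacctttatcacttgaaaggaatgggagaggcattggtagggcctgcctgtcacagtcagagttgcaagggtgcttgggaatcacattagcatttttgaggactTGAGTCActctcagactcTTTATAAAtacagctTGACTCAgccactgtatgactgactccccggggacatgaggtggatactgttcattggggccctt
DPP4: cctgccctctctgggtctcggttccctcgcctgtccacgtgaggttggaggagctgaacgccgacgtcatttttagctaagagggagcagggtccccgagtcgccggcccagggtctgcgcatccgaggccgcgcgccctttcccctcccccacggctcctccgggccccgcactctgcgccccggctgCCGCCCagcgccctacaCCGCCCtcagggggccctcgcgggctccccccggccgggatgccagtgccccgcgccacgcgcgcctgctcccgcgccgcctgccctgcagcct
CPM: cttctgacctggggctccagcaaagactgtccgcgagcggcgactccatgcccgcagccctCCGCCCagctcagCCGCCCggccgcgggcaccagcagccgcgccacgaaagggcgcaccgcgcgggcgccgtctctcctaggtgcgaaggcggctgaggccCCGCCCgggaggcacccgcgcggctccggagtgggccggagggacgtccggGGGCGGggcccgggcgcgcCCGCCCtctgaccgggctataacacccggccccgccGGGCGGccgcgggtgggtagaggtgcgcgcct

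The CPA4 window differs from the others in these letters. It has 1 CpG, and its ratio of observed to expected CpG is 0.0624, at the 5.31 percentile of 35116 promoters. TATAAA occurs 28 bases before the start site, overlapping with a match on the other strand, and TGANTCA occurs 48 and 15 bases before it. TATAAA is found in 11.5% of all promoters, TGANTCA in 7.71%, more than 1 TGANTCA in 0.515%, and both motifs in 1.31%. None of the other 8 windows has TGANTCA, and of these 8 the window of ENPEP alone has TATAAA, with a match on the other strand starting 80 and 29 bases before its start site.

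The DPP4 window has 34 CpG, a ratio of 0.840 and 2 GC boxes, at 61 and 44 bases before the start. CPM has 44 CpG, a ratio of 0.948 and 6 GC boxes, a number reached by 2.86% of promoters. GC boxes also occur in the windows of MME (2), DPP7 (2) and ANPEP (4), so that 5 of the 9 windows hold one, against 45.0% of all promoters. The CpG ratio was above the median of all promoters (0.579) in 6 of the 9 windows. The windows with high ratios belong to genes over the whole range from ANPEP (3.51 per kilobase) to CPE (150.3 per kilobase). The 2 with the lowest ratios belong to the most and the least abundant gene, CPA4 and ACE. The ACE window lies at an internal start, so its ratio is not that of the start of the canonical transcript. These matches describe the letters of the windows and do not show that a factor binds there.

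**Figure D3:**
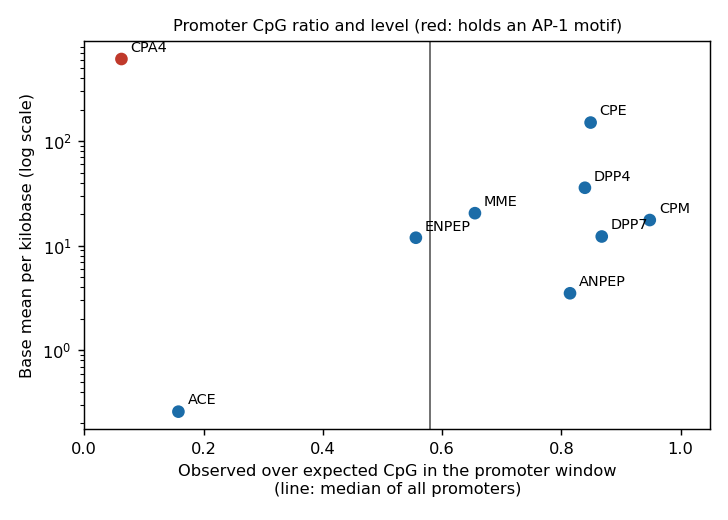
Ratio of observed to expected CpG in the promoter window (horizontal axis, no unit) and base mean per kilobase of transcript (vertical log axis) for the 9 genes, with the gene that holds an AP-1 motif in red and the median CpG ratio of all promoters as a line. CPA4 has the lowest ratio (0.0624) and the highest level, and ACE, whose window lies at an internal start, has the next lowest ratio (0.158) and the lowest level.

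Because the protocol reads 3′ ends, the last 500 exonic bases of each canonical transcript were compared with the exons of other genes. No member shared this stretch with another gene on the same strand. On the opposite strand, MME-AS1 covers 81 of the 500 bases of MME, and none of the other 8 genes has such an overlap. HTSeq-count takes strand into account under its default settings, which the methods name.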

How the data were processed

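Libraries were prepared by the authors with an adapted CEL-seq protocol. Per the labels, reads were trimmed with Trim Galore 0.4.5, mapped to GRCh38 with STAR 2.7.5a, counted with HTSeq 0.11.0 and compared with DESeq2 1.22.0 in R 3.5.3. The deposited table holds 1 signal per gene, the base mean, which is the authors' mean of counts divided by size factors. Its log2 fold change, standard error, statistic, p-value and adjusted p-value are the authors' own comparison and were not used, so levamisole and vehicle were not compared and no test was run.

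Percentiles (share of genes at or below a level), shares of the summed base means and levels per kilobase of Ensembl canonical transcript (GENCODE 44, 20599 of 20745 genes matched by identifier) were computed with Python 3.11.15, NumPy 2.4.6 and pandas 2.3.3. Ranking and 3′ end code was tested on simulated data. Promoter windows are RefSeq's.

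The members, lists and rule for naming genes (all members, then relatives and pathway genes by list) were chosen with earlier results of these data known. The promoter and 3′ end examination was added after the levels were seen. The planned protein comparison was not run; some genes of the lists are not reported here.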

Additional observations from a re-analysis of the deposited data

How the results depend on the processing

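The median percentile of the 9 genes was 73.2 among all genes, 58.3 when genes under a base mean of 5 were left out, 61.9 among genes with a reference protein and 61.6 on the base mean per kilobase. The number of genes over the minimum base mean was 8 at 5, 9 at 1, 8 at 10 and 6 at 50. Matching by Ensembl identifier found the same number of genes, 9. Leaving out the 22 mitochondrial genes, which took 34.8% of the summed base means, raised every share by a factor of 1.53. CPA4 stayed above the 97 percentile in all 4 references, whereas DPP7 ranged from 20.6 to 55.7 and ANPEP from 13.8 to 44.6. ACE was at 21.1 among all genes, 8.93 among genes with a reference protein and 6.16 on the scale per kilobase, all as percentiles. No paired analysis was possible because levels of single cultures are missing from the table analysed, and for the same reason no test of levamisole against vehicle, other normalization or left-out culture was run.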
